A study of Mus musculus with 4 samples.

Results

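The genes of oxidative phosphorylation were taken from the count table by symbol: those that begin with Nduf, Uqcr, Atp5 or Cox followed by a digit, with Sdha to Sdhd and Cyc1. The rule found 98 of the 22608 genes in the table, of which 83 encode a subunit of complexes I to V, 11 are assembly factors (the Ndufaf genes and Cox10 and above), and 4 are neither. The last 4 are Cox4nb, an older symbol of the endoplasmic reticulum gene Emc8, Cox7a2l, which joins respiratory complexes into supercomplexes, and the ATP synthase related Atp5s and Atp5sl. Alternative isoforms of a subunit were kept under its complex, and Ndufa4 was placed in complex IV, where its protein sits.

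RNA-Seq of polyadenylated RNA was performed on purchased neural stem cells (NSCs) of the embryonic cerebral cortex of CD-1 mice, grown with EGF and FGF at 20 ng/ml each and turned towards oligodendrocyte precursor cells (OPCs) for 3 days with T3 (triiodothyronine, 40 ng/ml) and the cytokine CNTF (20 ng/ml). Both groups had been infected with lentivirus and selected in puromycin. The 2 control libraries carried an shRNA against luciferase (sh-Luc), and the 2 knockdown libraries carried an shRNA against the long non-coding RNA lnc-OPC (sh-lnc-OPC2). Each group is a single hairpin in the same kind of cells, so the hairpin and the loss of its target cannot be told apart. lnc-OPC itself was not analysed here.

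The libraries held 46144779 to 50098577 reads in genes, and 14090 genes passed the filter on low counts. Markers of several cell types were present in all 4 libraries. Summed levels, in TMM-normalised CPM (read counts scaled to library size), were 2426 to 2435 in controls and 1665 to 1730 in knockdown for 6 OPC genes (5 called lower) and 919 to 1018 and 553 to 579 for 5 oligodendrocyte genes (all 5 called lower). The 6 astrocyte genes summed to 4038 to 4087 and 5923 to 6048 CPM (4 called higher, 2 lower). Most of that rise was Gfap, which went from 700 and 772 to 2301 and 2415 CPM. Aqp4, called lower, went from 942 and 923 to 816 and 804 CPM. S100b, also called lower, went from 19.4 and 17.4 to 5.85 and 5.94 CPM. The 5 NSC genes summed to 13244 to 13407 and 15931 to 16258 (3 higher, 1 lower). Most of the NSC sum was Vim, at 8597 and 8638 CPM in controls and 11571 and 12001 CPM in knockdown. Nes went from 1986 and 1843 to 1531 and 1510 CPM and was the gene called lower, Fabp7 was not called, and Sox2 and Prom1 were called higher. The 6 neuronal genes summed to 129 to 135 and 137 to 145 CPM (3 higher, 1 lower). The 5 endothelial and mural genes summed to 344 to 366 and 134 to 136 CPM, which came almost wholly from the mural gene Acta2, with Cdh5 and Cldn5 at 0. Both genes of this list that were tested were called lower, Acta2 and Pdgfrb, the latter from 9.48 and 8.00 CPM to 0.37 and 0.49 CPM. The defining microglial genes Cx3cr1 and Tmem119 were at 0, and 0 of 5 microglial genes passed the filter. These marker lists differed between the groups, and their part in the results below was not tested. In such bulk samples, fewer cells of a type and less RNA per cell cannot be told apart.

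Oxidative phosphorylation is the last stage of respiration, carried out in the inner mitochondrial membrane. Complexes I (NADH dehydrogenase) and II (succinate dehydrogenase) pass electrons to ubiquinone, complex III (cytochrome bc1) passes them to cytochrome c, and complex IV (cytochrome c oxidase) to oxygen, while complex V (ATP synthase) makes ATP from the proton gradient built by complexes I, III and IV. Most subunits are encoded in the nucleus and imported. The mitochondrially encoded subunits were not analysed here.

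Subunits of all 5 complexes were slightly higher in the knockdown libraries. Over the 92 members that passed the filter, 49 were called higher (53.3%) and 1, Atp5j2, was called lower (1.09%) (edgeR, quasi-likelihood, adjusted p under 0.05). Among all genes tested 23.5% were called higher and 23.3% lower. Because the members are abundant, the same shares were taken among genes of at least 10 CPM: 28.5% of those 9917 genes were called higher and 26% lower, against 48 higher (60.8%) and 1 lower of 79 members. The changes were small. The median log2 change of the members was 0.13 (1.10-fold), with a range from -0.30 to 0.43, against 0.002 over all genes tested, and 0 of 92 members changed over 2-fold. Both knockdown libraries lay above both controls for 66 members (36.4% of all genes did so) and below both for 7 (36.2% of all genes).

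Subunits and assembly factors had unlike counts. Of 77 subunits tested, 46 were called higher (59.7%) and 1 lower, with a median log2 change of 0.14. Of 11 assembly factors, 2 were called higher (18.2%, near the 23.5% of all genes tested) and 0 lower, with a median of -0.01. The difference between subunits and assembly factors was not tested. Summed over all members, the level was 8772 and 8807 CPM in the controls and 9446 and 9570 CPM in the knockdown libraries, a ratio of 1.08. The sum was also higher for each complex, with a ratio of 1.11 for complex I, 1.09 for complex II, 1.10 for complex III, 1.11 for complex IV and 1.05 for complex V, and no knockdown library overlapped a control, though the sums were not tested. For the assembly factors the sums were 248 and 251 CPM in controls and 251 and 253 CPM in knockdown, a ratio of 1.01.

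**Figure D1:**
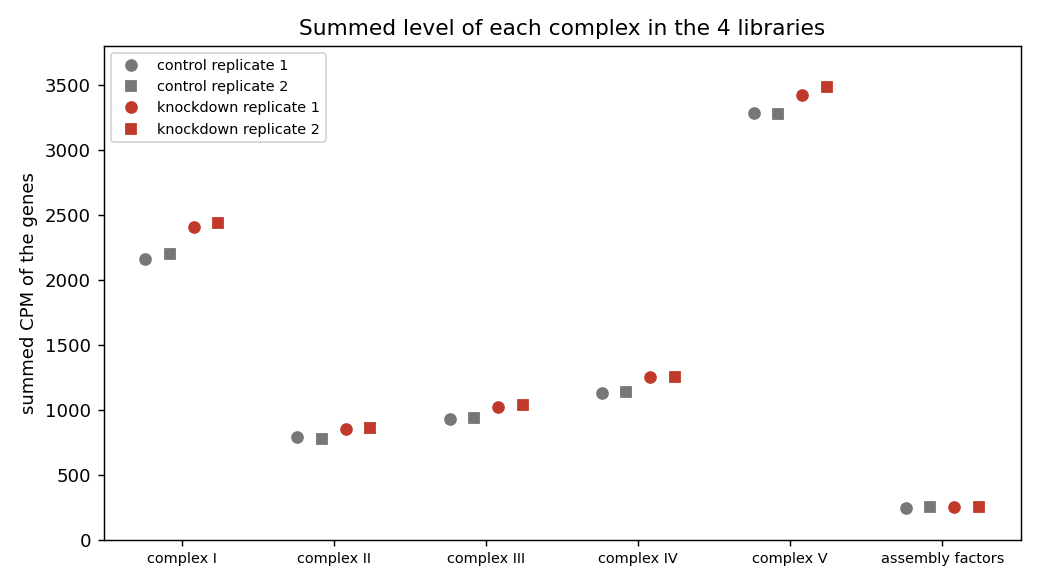
Summed TMM-normalised level (CPM) of the genes of each complex and of the assembly factors, with 1 point for each of the 4 libraries (grey, control; red, knockdown). The red points lie above the grey ones for all 5 complexes, from 2158 and 2201 to 2410 and 2440 CPM in complex I, while the assembly factors lie between 248 and 253 CPM in all libraries.

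**Figure D2:**
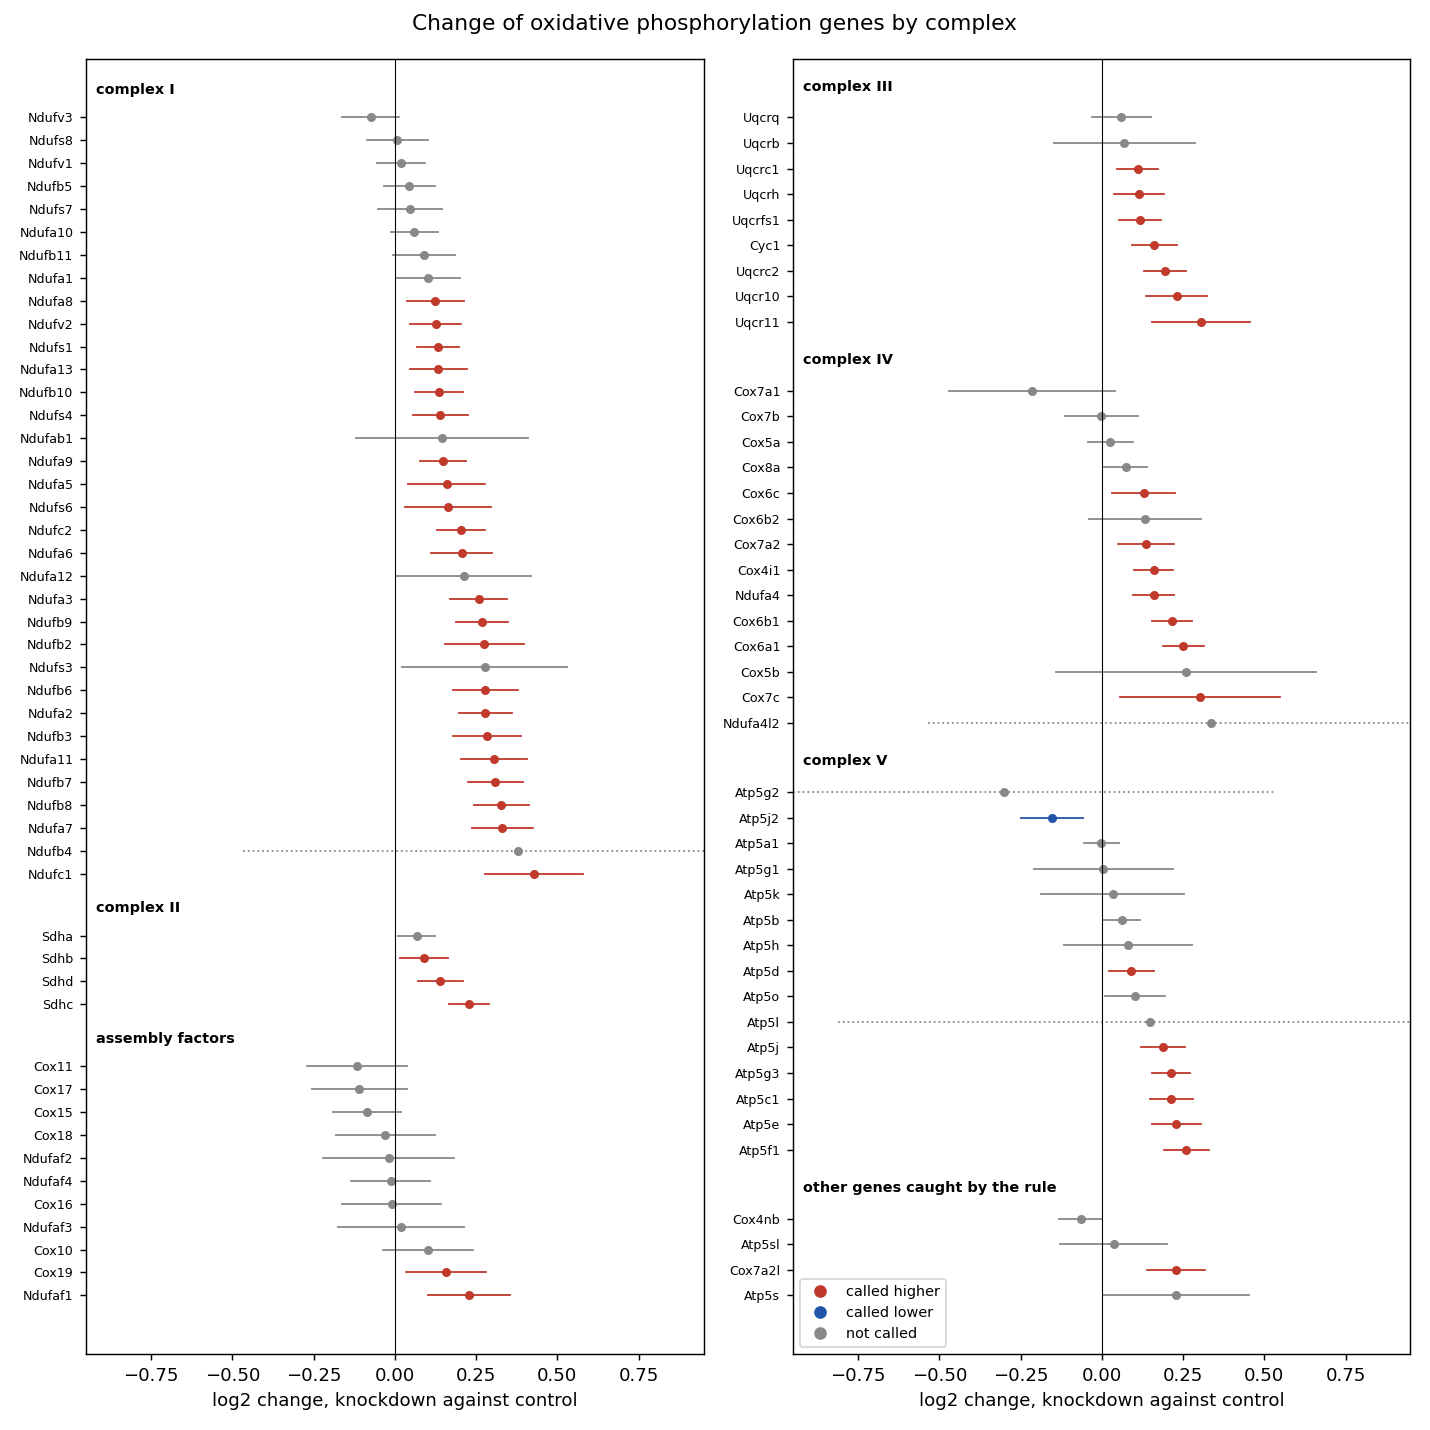
Log2 change (knockdown against control) of the members tested (1 is left out), with the 95% interval of each, grouped by complex; red, called higher, blue, called lower, grey, not called. Dotted intervals belong to 4 genes with few reads (Ndufb4, Ndufa4l2, Atp5g2 and Atp5l) and are clipped at the axis. Most red points lie between 0.1 and 0.4, and Atp5j2 (-0.15) is the only member in blue.

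The promoters of these genes are known for sites of the factors NRF1, GABP and YY1. In the windows from 250 bases before to 50 bases after the RefSeq start (GRCm38.p6), 79 of the 98 members had an entry. The letters GCATGCGC (NRF1), CCGGAAG (GABP) and AAGATGGC (YY1) were searched on both strands. At least 1 of the 3 was present for 45.6% of the members, against 30.5% of the 7974 tested genes of at least 10 CPM and 14.9% of all 27025 genes with a window. NRF1 letters stood in 13.9% of members and 6.62% of the abundant genes, YY1 letters in 15.2% and 5.84%, and GABP letters in 25.3% and 21.3%. By complex, at least 1 of the 3 was present for 43.8% of 32 genes in complex I and 57.1% of 14 in complex V. In complexes II and III it was 66.7% of 3 and 60% of 5. In complex IV it was 23.1% of 13, below the 30.5% of the abundant genes. YY1 letters were in 0 genes of complexes II, III and IV, and NRF1 letters in 1 of complex IV, Cox6a1. Among the subunits, any of the 3 was found for 56.8% of the 37 called higher and 33.3% of the 27 tested and not called higher, a difference that was not tested. Promoters of 3 subunits called higher are shown because together they hold an example of each motif, in capitals, from 180 bases before the start to 30 after it: Sdhd (chr9:50603820-50604029, minus strand), Cox6a1 (chr5:115348929-115349138, minus strand) and Atp5f1 (chr3:105959234-105959443, minus strand).
Sdhd: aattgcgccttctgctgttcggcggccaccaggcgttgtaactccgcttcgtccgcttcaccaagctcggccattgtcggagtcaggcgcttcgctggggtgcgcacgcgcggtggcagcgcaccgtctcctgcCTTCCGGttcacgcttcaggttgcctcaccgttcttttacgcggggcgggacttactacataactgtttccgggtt
Cox6a1: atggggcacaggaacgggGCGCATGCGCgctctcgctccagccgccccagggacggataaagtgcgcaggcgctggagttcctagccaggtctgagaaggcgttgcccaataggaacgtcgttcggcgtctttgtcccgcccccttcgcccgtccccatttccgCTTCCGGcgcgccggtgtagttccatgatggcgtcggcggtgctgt
Atp5f1: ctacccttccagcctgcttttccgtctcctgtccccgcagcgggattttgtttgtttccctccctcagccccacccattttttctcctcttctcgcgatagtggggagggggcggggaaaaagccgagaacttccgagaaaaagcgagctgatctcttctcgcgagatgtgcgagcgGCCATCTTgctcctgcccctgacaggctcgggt
The capitals in Sdhd are GABP letters on the opposite strand, 46 bases before the start. In Cox6a1 the run of 10 capitals is a pair of overlapping NRF1 matches on opposite strands at -162 and -160, and the other is a GABP match at -16. The YY1 match of Atp5f1 begins at -3 and so lies across the start. These are matches of letters and not measured sites. Atp5j2, the member called lower, also had a YY1 match, at 24 after the start, and Uqcr10, called higher, had no match to any of the 3.

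Complex I, the largest of the 5, takes electrons from NADH. Of its 35 subunits tested 23 were called higher (65.7%, beside 23.5% of all genes tested) and 0 lower, with a median log2 change of 0.16. Both knockdown libraries lay above both controls for 31 of them (36.4% of all genes did so). Among the 28 accessory subunits tested, which surround the catalytic core, 20 were called higher (median 0.20). Ndufb8, an accessory subunit of the membrane arm, was at 59.2 and 61.1 CPM in controls and at 74.8 and 76.2 CPM in knockdown (1.26-fold, log2 change 0.33 ± 0.04 SE, adjusted p = 6.38e-08). Ndufb7, of the same arm, was at 61.9 and 64.5 CPM and then 77.5 and 79.0 CPM (log2 change 0.31, adjusted p = 1.67e-07). For both genes the groups lay apart by far more than the replicates differed. In the peripheral arm, Ndufa7 was at 51.7 and 55.8 CPM in controls and 69.2 and 66.0 CPM in knockdown (0.33, adjusted p = 3.38e-07), and Ndufa2 at 75.1 and 78.5 CPM and then 91.2 and 95.1 CPM (0.28, adjusted p = 4.37e-07). Ndufc1 had the largest change of any member, from 15.3 and 15.2 CPM to 20.8 and 20.2 CPM (1.35-fold, log2 change 0.43 ± 0.07 SE, adjusted p = 1.11e-05).

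The core subunits of complex I hold the flavin and the iron-sulphur clusters. Ndufs1, an iron-sulphur subunit near the NADH site, was at 137 and 136 CPM in controls and 149 and 151 CPM in knockdown (log2 change 0.13, adjusted p = 0.000901), and its partner Ndufv2 was called higher as well (0.13, adjusted p = 0.00758). Ndufv1, which binds NADH, was at 105 and 109 CPM in controls and 106 and 111 CPM in knockdown, so that the groups overlapped (0.02, adjusted p = 0.692). Ndufs8 (0.01, adjusted p = 0.901) and Ndufs7 (0.05, adjusted p = 0.463), both iron-sulphur subunits, overlapped too. Ndufs3 was above in both knockdown libraries, at 5.50 and 6.36 CPM and then 6.83 and 7.50 CPM, and was not called (0.28 ± 0.13 SE, adjusted p = 0.0701). The call of Ndufv2 was lost without control replicate 2 (adjusted p = 0.109) and without knockdown replicate 1 (adjusted p = 0.176).

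Complex II, shared by the citrate cycle and the chain, has 4 subunits, all nuclear. All 4 were above in both knockdown libraries and 3 were called higher, beside 36.4% and 23.5% of all genes tested. The membrane anchor Sdhc was at 179.6 and 179.7 CPM in controls and 209 and 212 CPM in knockdown (1.17-fold, log2 change 0.23 ± 0.03 SE, adjusted p = 1.43e-07). Sdhd, the other anchor, was at 111 and 108 CPM and then 119.6 and 121 CPM (0.14, adjusted p = 0.00107). The catalytic subunits had smaller log2 changes, a difference from the anchors that was not tested. Sdhb, the iron-sulphur subunit, was at 102 and 103 CPM and then 106 and 111 CPM (0.09, adjusted p = 0.0404), and this call was lost without control replicate 1 (adjusted p = 0.183), control replicate 2 (0.121) or knockdown replicate 2 (0.394). Sdha, the flavoprotein that oxidises succinate, was at 403 and 390 CPM and then 415 and 416 CPM and was not called (0.07, adjusted p = 0.0537), although it was without control replicate 1 (adjusted p = 0.0397). Per kilobase of transcript, Sdha was the highest in controls (137 CPM per kb), Sdhb and Sdhd did not differ beyond their spread (89.3 ± 0.61 and 88.7 ± 1.75 CPM per kb, SD, n = 2), and Sdhc was the lowest (56.7 CPM per kb).

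In complex III, 7 of 9 subunits were called higher (77.8%, beside 23.5% of all genes tested) and 0 lower (median log2 change 0.12). When the relation of change to transcript length was taken out, as described below, 4 were called higher, beside 23% of all genes tested. The call of Uqcrfs1 was then lost (adjusted p = 0.0882). Uqcrc2, a core protein, was at 208 and 197 CPM in controls and 233 and 231 CPM in knockdown (0.19, adjusted p = 4.27e-06), and Uqcrc1, its partner, at 211 and 216 CPM and then 227 and 234 CPM (0.11, adjusted p = 0.0032). The electron-carrying subunits Cyc1, cytochrome c1, and Uqcrfs1, the Rieske iron-sulphur protein, were called higher by 0.16 (adjusted p = 0.000192) and 0.12 (adjusted p = 0.00314). The small subunit Uqcr10 rose from 57.2 and 62.2 CPM to 72.1 and 67.9 CPM (0.23, adjusted p = 9.51e-05), and Uqcr11 had the largest change of the complex (0.31, adjusted p = 0.000951). Uqcrq and Uqcrb overlapped between the groups. The call of Uqcrc1 was lost without control replicate 1 (adjusted p = 0.0656) and without knockdown replicate 2 (adjusted p = 0.0692).

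Complex IV has a mitochondrially encoded core, so its nuclear subunits are all accessory, and several exist as tissue isoforms. Of 19 genes 14 were tested, and 7 were called higher (50%, beside 23.5% of all genes tested) and 0 lower (median log2 change 0.15). With the trend with transcript length removed, an alternative described below, 3 of these 14 were called higher and 1, Cox7a1, lower. That share higher did not exceed the 23% of all genes tested in the same setting. Ndufa4 was then no longer called (adjusted p = 0.0716). Cox6a1 was at 151 and 156 CPM in controls and 182 and 183 CPM in knockdown (1.19-fold, log2 change 0.25 ± 0.03 SE, adjusted p = 4.24e-08), the smallest adjusted p of any member. Cox6b1 was at 168 and 165 CPM and then 193 and 194 CPM (0.22, adjusted p = 4.69e-07). Cox4i1, the regulatory subunit, was at 236 and 239 CPM and then 266 and 265 CPM (0.16, adjusted p = 3e-05), and Ndufa4 changed by as much (0.16, adjusted p = 7.96e-05). The groups did not overlap for any of these 4 genes. Cox7a2 was called higher (0.14, adjusted p = 0.00828), a call lost without control replicate 2 (adjusted p = 0.107) or knockdown replicate 2 (0.054). Cox8a (0.07, adjusted p = 0.0618), Cox5a (0.03, adjusted p = 0.553) and Cox7b (-0.0009, adjusted p = 0.99) were not called.

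Of the alternative isoforms of complex IV, 5 did not pass the filter. Cox4i2, the isoform of lung, was listed with 0 and 6 reads in controls and 2 and 0 in knockdown, and Cox6a2 of heart and muscle and Cox7b2 of testis with 0 in all 4 libraries. Cox8b had 1 read in control replicate 2 and Cox8c had 2 in knockdown replicate 2, with 0 elsewhere; a count of 0 allows up to 3 reads in a library, for counting error only. A pair of other isoforms was present at low levels. Cox7a1, the heart and muscle isoform, was at 6.41 and 7.30 CPM in controls and 5.71 and 6.09 CPM in knockdown (-0.22, adjusted p = 0.165), which per kilobase was 13.6% to 19.4% of Cox7a2. Cox6b2, the testis isoform, was at 12.8 and 13.7 CPM and then 15.01 and 14.1 CPM (0.13, adjusted p = 0.202), or 7.67% to 8.74% of Cox6b1 per kilobase. The 5 muscle markers together summed to at most 2.50 CPM, and of 3 testis markers Prm2 and Tnp1 were at 0 and Prm1 had 2 reads in control replicate 1 and 0 elsewhere. Ndufa4l2, an isoform of Ndufa4 that hypoxia induces, was at 0.45 to 0.75 CPM.

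In complex V, 6 of 15 subunits were called higher (40%) and 1 lower (median log2 change 0.09). Of all genes tested 23.5% were called higher, and of those of at least 10 CPM 28.5%. Atp5f1, subunit b of the peripheral stalk, was at 111 and 113 CPM in controls and 131 and 137 CPM in knockdown (1.20-fold, log2 change 0.26 ± 0.03 SE, adjusted p = 1.16e-07). Atp5g3, which encodes subunit c of the proton-carrying ring, was at 249 and 252 CPM and then at 290.4 in both knockdown libraries (0.21, adjusted p = 2.19e-07). Of the central stalk of F1, the gamma subunit Atp5c1 was at 131 and 129 CPM and then 147 and 154 CPM (0.21, adjusted p = 2.01e-06), and the epsilon subunit Atp5e at 103 and 98.7 CPM and then 115 and 122 CPM (0.23, adjusted p = 3.66e-06). The alpha and beta subunits, which form the catalytic head, were not called. Atp5b, the beta subunit, was at 1214 and 1188 CPM and then 1247 and 1259 CPM (0.06 ± 0.03 SE, adjusted p = 0.06). Atp5a1, the alpha subunit, was at 1057 and 1067 CPM and then 1054 and 1068 CPM (log2 change -0.001, 95% interval of -0.06 to 0.05, adjusted p = 0.975). These were also the members at the highest level in controls, with Atp5b at 627 and Atp5a1 at 430 CPM per kb, followed by Atp5g3 at 351 and Cox4i1 at 311 CPM per kb, and with Cox6b1 (270) and Cox6a1 (269) not apart beyond their spread.

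Atp5j2, subunit f of the membrane part, was the member called lower. It was at 71.6 and 71.8 CPM in controls and 60.7 and 68.3 CPM in knockdown (0.90-fold, log2 change -0.15 ± 0.05 SE, adjusted p = 0.00759). Both knockdown libraries lay below the controls, but they differed from each other by more than knockdown replicate 2 differed from the controls. Leaving out control replicate 1 gave an adjusted p of 0.102, leaving out control replicate 2 gave 0.112, and leaving out knockdown replicate 1 gave 0.313 with a log2 change of -0.07.

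The assembly factors help to build the complexes and are not part of them. Ndufaf1, a complex I factor, was at 24.5 and 24.3 CPM in controls and 28.3 and 28.9 CPM in knockdown (0.23, adjusted p = 0.00263). Cox19, which acts in copper delivery to complex IV, was called higher (0.16, adjusted p = 0.0329), but not without control replicate 1 (adjusted p = 0.259) or knockdown replicate 2 (0.154). The other copper factors Cox11 (-0.12, adjusted p = 0.211) and Cox17 (-0.11, adjusted p = 0.221), and Cox15 of haem a synthesis (-0.08, adjusted p = 0.179), were below the controls in both knockdown libraries without being called. Of the 11 assembly factors, 4 lay below both controls, Cox18 among them, near the 36.2% of all genes tested. Above both controls were 3, beside 36.4% of all genes tested. Among the genes that are neither subunit nor assembly factor, Cox7a2l was called higher (0.23, adjusted p = 5.95e-05).

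Several subunits were listed at very low counts. Ndufs5 had 2, 0, 1 and 5 reads in control replicates 1 and 2 and knockdown replicates 1 and 2, and did not pass the filter. Atp5l had 19, 20, 15 and 29 reads in the same order, and Ndufb4 had 29, 18, 32 and 30. Atp5g2, 1 of the 3 genes for subunit c with Atp5g1 and Atp5g3, had 36, 26, 28 and 23 reads. Cox5b, a central subunit of complex IV, had 126, 103, 142 and 136. Reads that fit more than 1 place enter no gene's count, and these genes share sequence with others: 84.9% of the words of 50 bases in the Atp5l transcript occur also in transcripts of other genes, 12 of them pseudogenes, with 87.4% for Atp5g2, 37.0% for Ndufb4, 31.1% for Ndufs5 and 25.9% for Cox5b. Over the 46 subunits with under 10% of shared words the median control level was 92.5 CPM per kb, over the 24 with 10% to under 50% it was 61.5, and over the 4 with 50% or more 5.91 CPM per kb. Across 74 subunits other than alternative isoforms of complex IV, shared words and log2 level were related with r = -0.589 and rho = -0.411, a description across genes of the same libraries. All 3 subunit c genes were kept among the 74. Among the 46 with little shared sequence 32 were called higher and 1 lower, with a median log2 change of 0.13. Of all genes tested 23.5% were called higher and 23.3% lower, and of those of at least 10 CPM 28.5% and 26%. Some subunits with a like share of shared words stood far higher in controls: Cox5a (32.05%) at 179, Ndufb6 (34.1%) at 60.9 and Atp5f1 (38.7%) at 69.7 CPM per kb. Ndufab1, with 12.3%, was at only 1.59 CPM per kb. The cause of any 1 low count was not tested.

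**Figure D3:**
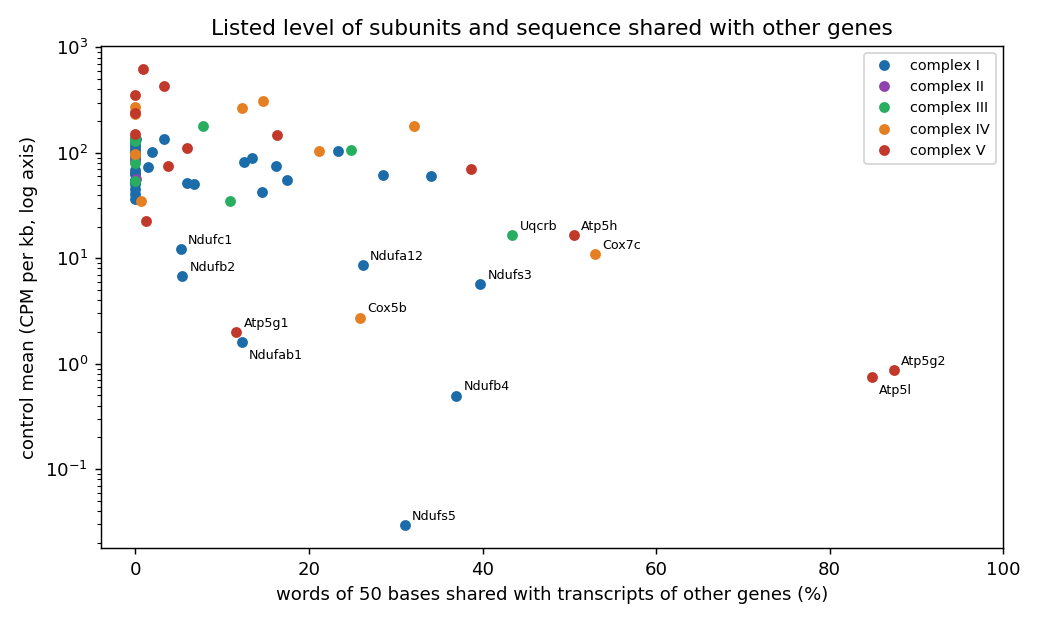
Control level (mean CPM per kb of transcript, log axis) against the share of the transcript's words of 50 bases found in transcripts of other genes, for 74 subunits other than alternative isoforms of complex IV, coloured by complex. Atp5l and Atp5g2 stand at the lower right with 84.9% and 87.4% of shared words, and the 46 subunits with under 10% of shared words span 6.75 to 627 CPM per kb, with a median of 92.5.

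Transcript length moved with the change. Among members of at least 10 CPM, shorter transcripts had larger log2 changes (r = -0.425, rho = -0.442, n = 78 genes, a description across genes), and over all genes of at least 10 CPM the relation had the same sign (r = -0.156, rho = -0.220, n = 9825). Up to 2000 bases, the share of members called higher was above that of other genes of like length. Of those from 500 to under 1000 bases 25 of 34 members (73.5%) and 34.3% of 362 other genes were called higher, with median log2 changes of 0.16 and 0.09. From 1000 to under 1500 bases it was 9 of 15 members and 34.5% of others, and from 1500 to under 2000 bases 7 of 11 members and 35.4%. Of the longer members, 2 of 8 from 2000 to under 3000 bases and 2 of 6 from 3000 to under 5000 bases were called higher, against 30.4% and 26.7% of others. With the trend with length taken out of each library, an alternative chosen after seeing the data, 32 members were called higher and 3 lower, and the median log2 change was 0.07. The share called higher was then 34.8% of the members tested and 23% of all 14090 genes tested, where the main fit gave 53.3% and 23.5%. The part of length in the remaining difference was not tested further. The level of a member was hardly related to its change (r = 0.060, n = 78).

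**Figure D4:**
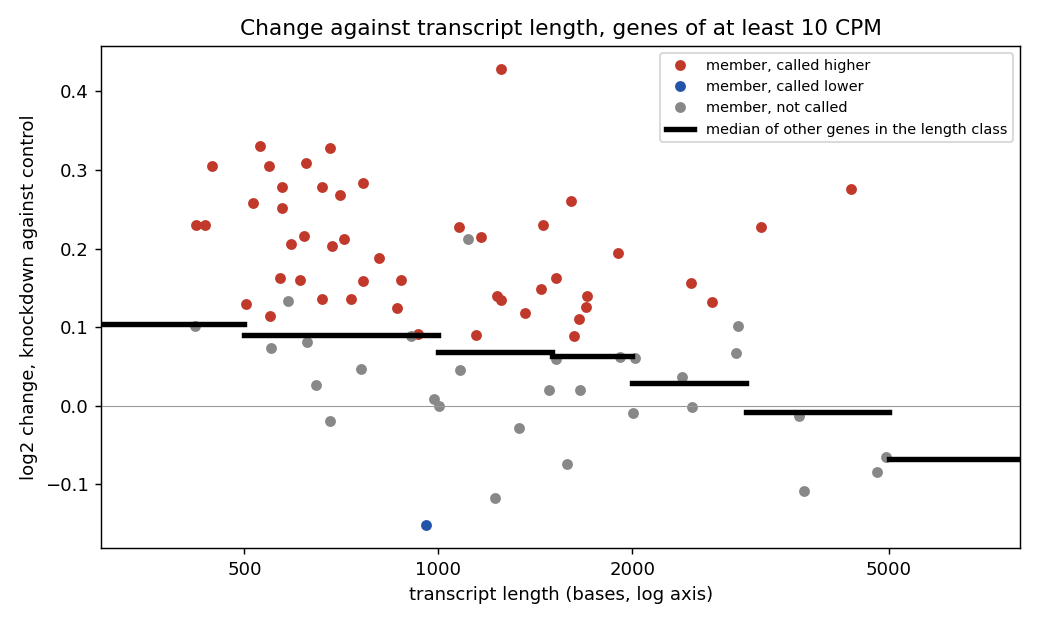
Log2 change (knockdown against control) against transcript length (bases, log axis) for members of at least 10 CPM; red, called higher, blue, called lower, grey, not called. Black bars give the median of all other genes of each length class, which falls from 0.10 under 500 bases to -0.07 at 5000 bases and above, and most members from 500 to under 1000 bases lie above their bar.

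Other gene groups with short and abundant transcripts gave the scale. At 10 CPM or more, 13 of 39 cytosolic ribosomal protein genes (33.3%) were called higher and 2 lower (median log2 change 0.05), 21 of 68 mitochondrial ribosomal protein genes (30.9%) were higher and 4 lower (0.09), and 17 of 34 proteasome genes (50%) were higher and 1 lower (0.09). Of all genes tested of at least 10 CPM, 28.5% were called higher and 26% lower. The shares higher of both ribosomal lists were near the former. The differences between these lists and the members were not tested.

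In the citrate cycle, which feeds the chain, 10 of 13 genes were called higher and 0 lower (median log2 change 0.09), beside 23.5% and 23.3% of all genes tested. Cs, citrate synthase, which opens the cycle, had by far the largest change of them, from 267 and 260 CPM in controls to 460 and 472 CPM in knockdown (1.77-fold, log2 change 0.82 ± 0.03 SE, adjusted p = 9.79e-22). Without Cs, the called genes of the cycle lay between 0.08 and 0.24. Of 6 carriers and pores, 5 were called higher, led by Vdac1, the outer membrane channel (0.33, adjusted p = 1.68e-11), and the phosphate carrier Slc25a3 (0.21, adjusted p = 1.98e-07). Pyruvate dehydrogenase and its kinases had 2 of 8 genes higher (25%), Pdha1 and Dlat, and 0 lower, with a median log2 change of -0.001, so that its share higher was near that of all genes. Of the carrier Cycs and the inhibitor Atpif1, Atpif1 was called higher (0.11, adjusted p = 0.0111) and Cycs was not called (0.09, adjusted p = 0.6).

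Of 13 regulators that switch on or maintain mitochondrial genes, 6 were called lower (46.2%) and 1 higher (median log2 change -0.14), beside 23.3% lower among all genes tested. Of other genes of at least 10 CPM with transcripts of 5000 bases or more, 41.7% were called lower, and the length of the regulators was not taken into account. Ppargc1b, a coactivator of mitochondrial genes, was at 3.88 and 3.68 CPM in controls and 2.10 and 2.08 CPM in knockdown (0.55-fold, log2 change -0.85 ± 0.18 SE, adjusted p = 0.000248). Its relatives Ppargc1a (-0.18, adjusted p = 0.00634) and Pprc1 (-0.17, adjusted p = 0.00158) were lower, as were Nrf1 (-0.19, adjusted p = 0.00312), the GABP subunit Gabpb2 (-0.32, adjusted p = 3.63e-07) and Tfam, which packages mitochondrial DNA (-0.14, adjusted p = 0.0147). Gabpa, the DNA-binding subunit of GABP (0.02, adjusted p = 0.738), and Yy1 (-0.08, adjusted p = 0.1) were not called. Tfb1m, which modifies mitochondrial ribosomal RNA, was higher (0.35, adjusted p = 0.0404).

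Of 18 assembly factors outside the rule that were tested, 4 were called higher (22.2%; Surf1, Uqcc, Ecsit and Tmem126b) and 1 lower (5.56%), a share higher near the 23.5% of all genes. The lower gene was Tmem70, which acts in ATP synthase assembly, at 34.6 and 34.7 CPM in controls and 27.5 and 27.6 CPM in knockdown (-0.33, adjusted p = 1.3e-05). In protein import, Tomm20 (0.41, adjusted p = 0.000881) and Tomm22 (0.18, adjusted p = 0.00794) of the outer membrane were higher and Timm50 of the inner membrane was lower (-0.28, adjusted p = 5.05e-06). These 2 of 10 genes higher (20%) and 1 lower (10%) do not exceed the shares of all genes.

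**Figure D5:**
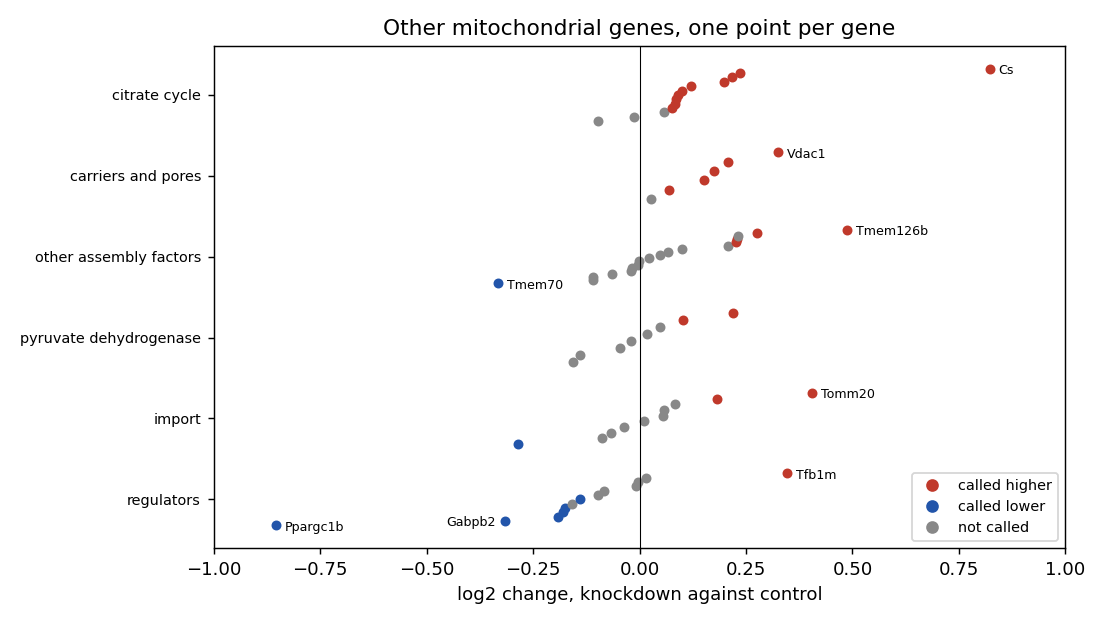
Log2 change (knockdown against control) of other mitochondrial genes by group, with 1 point per gene; red, called higher, blue, called lower, grey, not called. Cs stands apart at 0.82, and 6 of the 13 regulators are blue, with Ppargc1b at -0.85.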

How the data were processed

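The authors deposited a table of raw read counts per gene, made from TruSeq V2 libraries (HiSeq 2000), which do not mark strand, so antisense and overlapping genes cannot be told apart. Per the labels, TopHat 1.3.3, Bowtie 0.12.7, SAMtools 0.1.18, HTSeq 0.6.1, Cufflinks and DESeq were used with mm9; the annotation and counting options were not given in the sources used here. A second deposited file of the authors' own comparison (fold changes and p-values) was not used. Rows that name no gene were left out: of the table's total, 20.1% to 22.2% lay outside genes, 10.7% to 11.2% had more than 1 alignment and 0.43% were ambiguous.

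Counts were tested with edgeR 4.0.16 (R 4.3.3): filterByExpr, TMM factors and the robust quasi-likelihood test of knockdown against control, with Benjamini-Hochberg adjustment over all 14090 genes; called means adjusted p under 0.05. This differs from the study's DESeq and fold threshold. The common biological variation was 2.95%. The labels call the replicates biological without naming separate cultures, so p-values measure the spread between these samples. Replicates differed beyond sampling noise (chi-square per degree of freedom 4.11 and 3.93). CPM use TMM library sizes. Transcript lengths (97 of 98 members) and shared words of 50 bases came from GENCODE M21, 1 coding transcript per gene, and promoters from RefSeq (GRCm38.p6); both builds are newer than mm9. Some long representative transcripts lower a gene's CPM per kb. Ribosomal kinase genes were removed from the ribosomal list after seeing it. The script was tested on simulated data.

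Members and lists were chosen with earlier results of these data known. Named were the up to 4 subunits of each complex (all of complex II) and 4 assembly factors with the smallest adjusted p, members called lower or over 2-fold, central subunits, isoforms and members not tested; an item withheld from the text is not reported here. Ndufc1, Ndufb4, Atp5l, Uqcrq, Uqcrb and Cox17, genes of other lists and the 3 promoters were picked after their values were seen. Alternatives were RLE, upper-quartile and total-count scaling, 2 other filters, DESeq2 1.42.0, the replicate block, each library left out and, added later, removal of the length trend.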

Additional observations from a re-analysis of the deposited data

Results flagged for a closer look

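Reads with more than 1 alignment, which enter no gene's count, made up 11.2% ± 0.070 of the table's total in the knockdown libraries and 10.8% ± 0.131 in the controls (mean ± SD, n = 2 each). This lies outside the main measurement and above the control level. Which genes these reads come from was not tested.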

How the results depend on the processing

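The counts over all genes stayed within 1.5 times of 3309 higher and 3276 lower under all 12 alternatives. Members called higher ranged from 37 to 46 with a library left out and fell to 32 with the length trend removed; members called lower were 4 with total counts only, 3 with the length trend removed and 0 to 1 with a library left out. The median log2 change of the members was 0.098 with total counts only, 0.074 with the length trend removed and 0.11 to 0.14 with a library left out. Total counts only gave 2677 higher and 3964 lower genes over all, 40.3% higher among the calls against 50.3%, with a median over all genes of -0.03; its lower members were Atp5j2, Cox15, Cox4nb and Ndufv3. DESeq2 called 40 members higher (43.5%, beside 18.5% of all genes tested) and 1 lower. The replicate numbers pair only 2 libraries with 2, and deviations of same-numbered libraries were related by r = 0.054 over 14090 genes. With so few libraries this cannot show whether same-numbered libraries had a culture or batch in common. The replicate block gave 52 members higher (56.5%, beside 24.2% of all genes tested), Atp5b and Sdha among them, and 1 lower. Among the named members, those that changed sign were not called: with total counts only Atp5g1 (-0.032), Cox5a (-0.010), Ndufs8 (-0.029) and Ndufv1 (-0.017), and with the length trend removed Cox5a (-0.061), Cox8a (-0.021), Ndufs7 (-0.034), Ndufs8 (-0.060) and Ndufv1 (-0.020). With a library left out, Atp5g1 ranged from -0.10 to 0.12, Ndufv1 from -0.015 to 0.053, Atp5a1 from -0.011 to 0.0081, Cox7b from -0.0049 to 0.0024, Ndufs8 from -0.0052 to 0.021, Ndufa4l2 from -0.080 to 0.65 and Ndufs7 from -0.0039 to 0.094. Removing the length trend also ended calls, among them those of Sdhb, Cox7a2, Cox19, Ndufv2, Uqcrc1, Uqcrfs1 and Ndufa4. Complexes III and IV then had 4 and 3 members called higher, beside 23% of all genes tested. Total counts ended the calls of Sdhb, Cox7a2, Cox19 and Ndufv2, among others. DESeq2 ended those of Sdhb and Cox19, and upper-quartile scaling and the 10 CPM filter that of Sdhb. The cause of these shifts was not tested, except that removing a library leaves fewer samples. Depth limits Atp5l, Atp5g2, Ndufb4 and Ndufa4l2, with 15 to 37 reads a library.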
